A study of Mus musculus with 15 samples.

Results

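The comparison described here sets perilesional against non-lesional skin of ultraviolet-irradiated, placebo-treated mice. It draws on 6 of the 15 libraries of the study, 3 of perilesional and 3 of non-lesional skin. Its members are the 24027 genes listed in the authors' deposited table for these groups, out of 24027 listed in the whole series, leaving aside symbols corrupted to calendar dates. Of these, 15201 had an adjusted p-value and so could be tested. A positive log2 fold change means a higher level in perilesional skin.

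All libraries came from skin of female SKH1 mice, an outbred hairless strain that is widely used for photocarcinogenesis. The mice were aged 6 to 8 weeks and received ultraviolet B at 500 J/m2, a dose that just reddens the skin, on 5 days per week for 10 weeks, which induces actinic keratoses. Both groups compared here, like the placebo lesional and non-UV-exposed groups, received 0.25 g of a placebo cream on 5 days per week, and the remaining group was lesional skin under a cream with GZ21T. The labels give no distance of perilesional skin from a lesion, no histology and no age at harvest. Libraries carry the numbers 1 to 3 in both groups, but whether a number marks a mouse is not stated, and the p-values therefore reflect variation among libraries that may be partly technical. The SE of a gene was nearly the same in the tables of other groups (0.347 for Krt14 in each of 3 tables), so libraries of the other groups may enter it.

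Actinic keratoses are patches of dysplastic keratinocytes in sun-damaged skin from which squamous cell carcinoma can arise, and the skin around them is often treated as a field that has been altered along with the lesion. The sebaceous gland, which opens into the hair follicle, makes lipid in its cells and releases it as those cells break down. Its output rests on fatty acid synthesis, elongation, desaturation and the formation of wax and sterol esters. The growing hair follicle instead makes hair keratins, keratin-associated proteins and trichohyalin in concentric layers around and within the hair shaft, and SKH1 mice shed their coat early because the hairless gene is defective.

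Few genes separated the 2 kinds of skin, and those that rose in perilesional skin were led by genes of lipid synthesis. In the table deposited by the authors, 17 genes passed an adjusted p of 0.05 in their DESeq2 Wald test with Benjamini-Hochberg adjustment, and these are the genes referred to as called. They made up 0.112% of the genes tested. Of the called genes 14 were higher in perilesional skin (0.0921% of genes tested) and 3 were lower (0.0197%). Centring the fold changes on their median gave a split of 14 higher and 6 lower, and centring on the median of the genes tested in every table, an alternative chosen after seeing the data, gave 15 higher and 1 lower. At an unadjusted p under 0.05, 554 genes were higher (3.64%) and 636 were lower (4.18%). The test statistics were somewhat wider than a standard normal distribution, with a spread of 1.07 over all genes. After division by that spread 2 calls remained, Elovl6 among them.

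**Figure D1:**
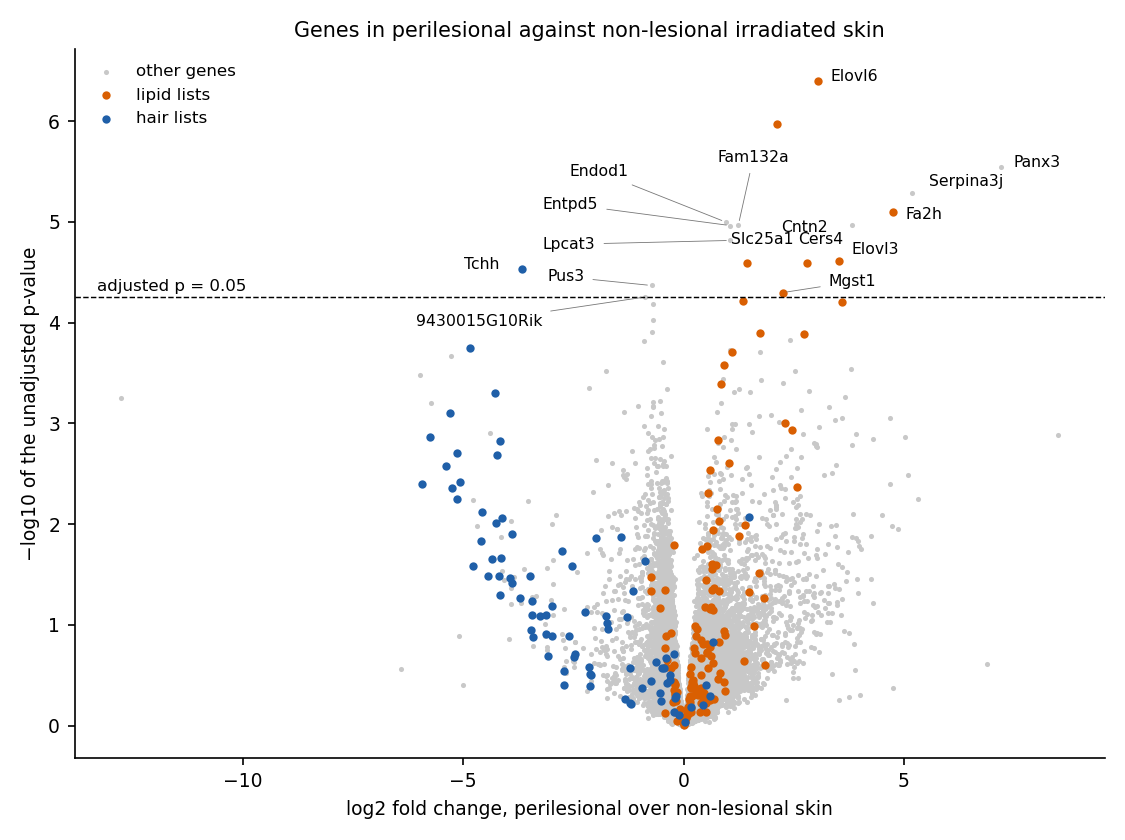
Each point is a gene tested, with its log2 fold change in perilesional over non-lesional skin on the x axis and −log10 of its unadjusted p-value on the y axis. Of the 17 genes on or above the dashed line 16 are named, and 7 of the 17 belong to the lipid lists (orange), while most points of the hair lists (blue) lie to the left of 0 and below the line.

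The largest group among the called genes handles fatty acids. Elovl6, which elongates palmitate to stearate, was higher by a log2 fold change of 3.06 ± 0.60 (SE) in the authors' deposited table, an 8.34-fold difference (adjusted p = 0.00615). Its gene lies at chr3:129532355-129638495 on the plus strand (GRCm38). Elovl3, an elongase of very long chain fatty acids that is prominent in sebaceous glands, was higher by 3.52 ± 0.83 (adjusted p = 0.0301). Fa2h, which adds a hydroxyl group to the fatty acids of complex sphingolipids and lies at chr8:111345135-111393824 on the minus strand, was higher by 4.75 ± 1.06, with a 95% interval from 2.66 to 6.83 (adjusted p = 0.0184). The interval shows how imprecisely the size of that rise is known. Slc25a1, the mitochondrial citrate carrier that supplies carbon for fatty acid synthesis in the cytosol, was higher by 1.45 ± 0.34 (adjusted p = 0.0301).

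Other called lipid genes belong to neighbouring branches of lipid metabolism. Cers4, a ceramide synthase expressed in sebaceous glands, was higher by 2.80 ± 0.66 in the authors' deposited table (adjusted p = 0.0301). Lpcat3, which places polyunsaturated acyl chains on phospholipids, was higher by 1.07 ± 0.25, or 2.09-fold (adjusted p = 0.0233). Mgst1, a microsomal glutathione transferase that is abundant in sebocytes, rose by 2.25 ± 0.55 (adjusted p = 0.0479). Its call was lost when p-values were adjusted over every gene that had one (adjusted p = 0.0592).

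The promoters of a few of these genes are printed because the members rose or fell together, each from 250 bases before to 50 after the RefSeq start (GRCm38.p6), 5′ to 3′ on the gene's own strand. Of the called genes 8 of the 14 higher and all 3 lower had a promoter in the RefSeq table. The motifs searched, on both strands, were the E-box CACGTG, the CCAAT box CCAAT, the nuclear receptor half-site TGACCT and the sterol element TCACNCCA, and matches are in capitals. On the other strand a CCAAT box reads ATTGG, and the motifs searched did not overlap in these windows. The regions are chr3:129532136-129532435 (plus strand) for Elovl6, chr16:17928170-17928469 (minus strand) for Slc25a1, chr6:124662854-124663153 (plus strand) for Lpcat3 and chr3:93442080-93442379 (plus strand) for Tchh, the hair gene described further on.
Elovl6: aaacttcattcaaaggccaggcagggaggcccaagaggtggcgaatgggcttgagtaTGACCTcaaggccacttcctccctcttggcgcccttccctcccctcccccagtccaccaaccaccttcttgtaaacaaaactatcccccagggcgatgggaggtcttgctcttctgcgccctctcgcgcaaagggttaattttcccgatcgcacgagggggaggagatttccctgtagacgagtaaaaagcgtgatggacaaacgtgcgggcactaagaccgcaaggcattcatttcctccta
Slc25a1: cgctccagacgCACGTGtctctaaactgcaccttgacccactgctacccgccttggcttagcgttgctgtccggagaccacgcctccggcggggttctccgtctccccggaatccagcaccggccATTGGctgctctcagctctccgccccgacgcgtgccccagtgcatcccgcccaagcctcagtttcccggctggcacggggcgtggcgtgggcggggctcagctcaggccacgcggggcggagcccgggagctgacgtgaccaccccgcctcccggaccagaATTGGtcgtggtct
Lpcat3: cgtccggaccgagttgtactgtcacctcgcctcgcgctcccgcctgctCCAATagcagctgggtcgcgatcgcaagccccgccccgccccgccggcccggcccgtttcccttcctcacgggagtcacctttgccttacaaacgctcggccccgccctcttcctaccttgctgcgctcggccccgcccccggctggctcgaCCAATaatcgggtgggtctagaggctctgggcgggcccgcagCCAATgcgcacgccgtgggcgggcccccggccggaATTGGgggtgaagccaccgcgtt
Tchh: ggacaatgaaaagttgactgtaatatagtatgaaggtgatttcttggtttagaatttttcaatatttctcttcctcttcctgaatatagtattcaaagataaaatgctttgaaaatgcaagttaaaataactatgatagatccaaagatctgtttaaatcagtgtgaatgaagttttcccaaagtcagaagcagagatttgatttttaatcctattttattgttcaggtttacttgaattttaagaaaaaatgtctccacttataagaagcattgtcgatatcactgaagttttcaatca
The Elovl6 window holds a nuclear receptor half-site at -193 from the start. The Slc25a1 window holds an E-box at -239 and 2 CCAAT boxes, the Lpcat3 window holds 4 CCAAT boxes, and the Tchh window holds none of the motifs. The window of Cers4, a called lipid gene, was scanned as well, holds none of the motifs and is not printed. Among the 8 promoters of genes that rose, 3 hold a CCAAT box (37.5%), 1 an E-box (12.5%), 1 the half-site (12.5%) and 0 the sterol element. Among the 3 promoters of genes that fell, 2 hold a CCAAT box, 1 an E-box and 0 either of the others. Over all 27025 promoters of the same length 41.1% hold a CCAAT box, 8.09% an E-box, 18.1% the half-site and 4.97% the sterol element, and over those of the genes tested here the shares are 42.1%, 11.1%, 15.1% and 4.74%. The promoters of the cholesterol synthesis list held a CCAAT box in 17 of 19 cases (89.5%) and those of the fatty acid list in 19 of 28 (67.9%). A match is a stretch of letters and not a measured binding site.

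Most members of the fatty acid synthesis list were higher in perilesional skin, although few passed the test. Of 37 members tested 30 had a positive and 7 a negative log2 fold change, 4 were called higher and 0 lower, and the median was 0.60 beside 0.03 over all genes. At an unadjusted p under 0.05, 16 members were higher (43.2%) and 1 was lower (2.7%). Among the enzymes that make palmitate, Fasn, the fatty acid synthase, had 0.54 ± 0.23 (adjusted p = 0.489), near the list median, and Acaca, the acetyl-CoA carboxylase of the cytosol, had -0.22 ± 0.09 (adjusted p = 0.487). The elongases differed among themselves, with 4 of 6 positive, from -0.28 for Elovl1 to 3.52 for Elovl3, and Elovl5 had 1.11 ± 0.30 (adjusted p = 0.099). Of the 4 stearoyl-CoA desaturases 2 were positive and 2 negative, from -0.41 ± 1.34 for Scd4 to 2.74 ± 0.72 for Scd1, the main desaturase of sebocytes (adjusted p = 0.0824). Srebf1, the gene of the transcription factor that drives many of these enzymes, had 0.14 ± 0.14 in the authors' deposited table (adjusted p = 0.879).

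The cholesterol synthesis list was mostly positive with a smaller median. Of 26 members tested 23 had positive and 3 negative values, 1 was called higher and 0 lower, and the median was 0.24. Of the members not called, Msmo1, a sterol demethylase, had 0.92 ± 0.25 in the authors' deposited table (adjusted p = 0.12), and Acat2, which joins acetyl-CoA units at the start of the pathway, had 0.66 ± 0.26 (adjusted p = 0.451). At an unadjusted p under 0.05, 6 members were higher and 0 lower.

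**Figure D2:**
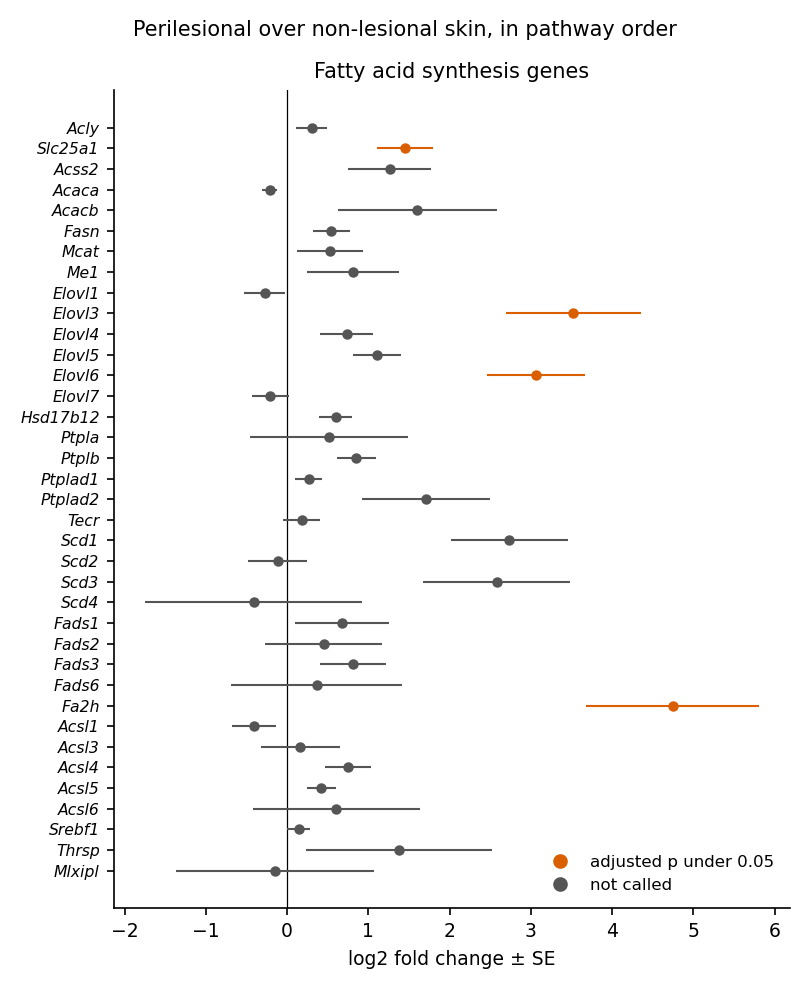
The log2 fold change (x axis, ± SE) of the tested members of the fatty acid synthesis list, in pathway order, with called genes in orange. Elovl3, Elovl6 and Fa2h stand far to the right of Fasn (0.54) and Acaca (-0.22).

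The sebaceous gland list was also mostly positive. Of 27 members tested 25 were positive and 2 negative, 2 were called higher (Cers4 and Mgst1) and 0 lower, and the median was 0.94. Far2, which makes the fatty alcohols of wax esters, lay at the threshold with 3.60 ± 0.90 (adjusted p = 0.0502), and Plin2, a coat protein of lipid droplets, had 1.74 ± 0.45 (adjusted p = 0.0824). Soat1, which esterifies cholesterol, had 2.31 ± 0.70 (adjusted p = 0.208), and Cidea, another lipid droplet protein, had 2.45 ± 0.76 (adjusted p = 0.22). The sebocyte markers set apart as defining gave a range of values in the authors' deposited table, from 0.50 ± 1.46 for Plin5 and 0.82 ± 0.79 for Awat2 to 0.94 ± 0.61 for Krt79, 1.84 ± 1.60 for Mc5r and 3.60 for Far2. All 5 were positive and 0 were called. Pparg, a transcription factor of both sebocytes and adipocytes, had 1.83 ± 0.95 (adjusted p = 0.656). In pieces of whole skin, more cells of a type and more RNA per cell cannot be told apart.

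Barrier lipid and peroxisome genes showed less. Of 27 ceramide and barrier lipid genes 15 were positive and 12 negative with a median of 0.05, and Cers4 was the called member. Slc27a4, a fatty acid transporter needed for the skin barrier, had 1.34 ± 0.34 (adjusted p = 0.0502). Aloxe3, an epidermal lipoxygenase, had a negative value with an unadjusted p of 0.046. Of 33 peroxisome genes 27 were positive with a median of 0.21 and 0 were called by the authors' DESeq2 test, and 3 were higher and 1 lower at an unadjusted p under 0.05. Over these 5 lipid lists together 148 genes were tested, of which 7 were called higher and 0 lower.

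Most genes tested of the growing hair shaft and its inner root sheath had negative values. Tchh, trichohyalin of the inner root sheath and medulla, fell by 3.66 on the log2 scale (SE 0.88, adjusted p = 0.0318), so that its level was 12.7-fold higher in non-lesional skin. The gene lies at chr3:93442330-93449077 on the plus strand. All 16 inner root sheath genes tested in the authors' deposited table had negative values, with a median of -1.48, and Tchh was the called member. The median was -0.40 over the members with an SE under 1 and -3.66 over those tested in every table. Krt28, Krt72, Krt25 and Krt71, keratins of that sheath, had -4.27 ± 1.23, -5.75 ± 1.80, -4.17 ± 1.31 and -4.34 ± 1.90, with adjusted p from 0.158 to 0.536. Their errors are several times the median SE of 0.336 over all genes.

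Hair shaft keratins had the lowest median of the lists, -4.18, with 14 of 15 members negative. Just 1 member had an SE under 1, and its value was positive, at 0.45. By the authors' DESeq2 test 0 of them were called, while 12 were lower and 0 higher at an unadjusted p under 0.05. Krt82, a keratin of the hair cuticle, had -5.29 ± 1.57 (adjusted p = 0.191), and Krt86, of the cortex, had -5.15 ± 1.66 (adjusted p = 0.262). Krt85 differed from these with -1.34 ± 2.18 (adjusted p = 0.948), a value with an interval from -5.60 to 2.93. The keratin-associated proteins, which cross-link keratin in the shaft, were tested for 31 of 52 members, all negative, with a median of -3.11 and 8 at an unadjusted p under 0.05. Over the 3 members with an SE under 1 the median was -0.53. The members tested were those with enough reads to pass the authors' filter, which can favour genes high in 1 of the groups. Nothing is therefore read from the shared sign of the members kept.

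Regulators of the hair matrix had mostly negative values of smaller size. Of 26 members 20 were negative and 6 positive, with a median of -0.46 and 0 called by the authors' DESeq2 test, and at an unadjusted p under 0.05, 5 were lower and 1 higher. Dsg4, a cadherin of desmosomes in the hair shaft, had -4.84 ± 1.29 (adjusted p = 0.099), and Bmp4, a secreted signal for hair shaft differentiation, had -1.41 ± 0.57 (adjusted p = 0.471). The outer root sheath and bulge list had a median of 0.15, with 9 of 14 members positive, and the dermal papilla list had a median of 0.50, with 10 of 13 positive. The outer root sheath and bulge list ran from -3.14 ± 2.07 for Fgf18 (adjusted p = 0.771) to 2.64 ± 1.09 for Lgr5 (adjusted p = 0.482). Lgr5 is a marker of bulge stem cells. Over the 4 lists of shaft, associated proteins, inner sheath and matrix, 86 genes were tested in the authors' deposited table. Of these 0 were called higher and 1, Tchh, was called lower. At an unadjusted p under 0.05, 32 were lower and 1 higher, beside 4.18% and 3.64% of all genes tested. The 86 include the keratin-associated proteins kept by the authors' filter, so nothing is read from this total. The melanocyte list had a median of -0.89 over 8 members, 2 positive and 6 negative, with 0 called and 0 at an unadjusted p under 0.05. Over the 3 members with an SE under 1 the median was -0.40. Its markers set apart as defining were Tyr, the tyrosinase gene, with -3.01 ± 1.58, and Dct, with -0.58 ± 1.07.

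**Figure D3:**
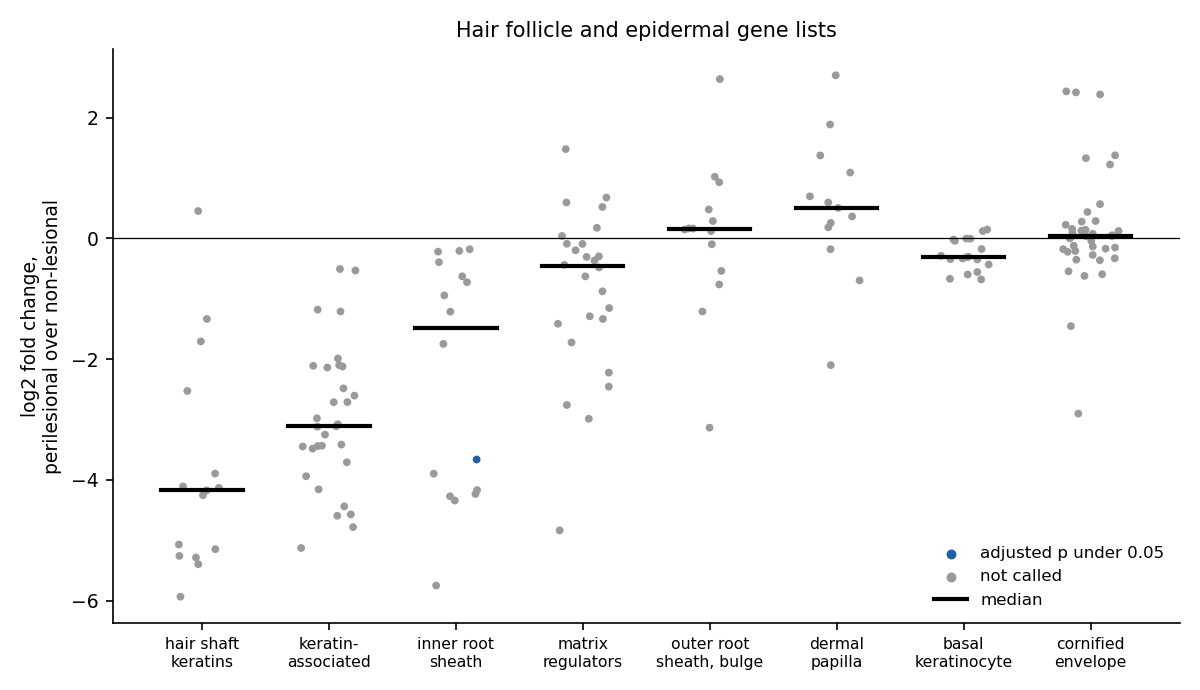
Each point is a tested member of a hair follicle or epidermal list (x axis), with its log2 fold change in perilesional over non-lesional skin on the y axis and the list median as a black bar. The medians run from -4.18 in the hair shaft keratins to 0.50 in the dermal papilla list, and Tchh is the called point (blue).

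The main keratins of the epidermis had small log2 fold changes between the sites, and 0 of those named here were called. In the authors' deposited table Krt14, the basal keratin, had a log2 fold change of 0.00 ± 0.35, Krt10, of the layers above, had -0.35 ± 0.57, and Krt5 and Krt1 had -0.29 ± 0.36 and -0.33 ± 0.38. Krt6a and Krt16, keratins of stressed and hyperproliferative epidermis, had 0.41 ± 0.51 and -0.02 ± 0.45. The same 2 keratins had been higher in non-lesional than in non-UV skin by 2.69 and 3.70 (adjusted p = 5.77e-05 and 1.32e-12), a comparison that shares the non-lesional libraries. The interval for Krt16 between perilesional and non-lesional skin runs from -0.90 to 0.87.

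The cornified envelope list had 22 of 40 members positive with a median of 0.04, and the stress keratin and alarmin list had 17 of 23 positive with a median of 0.32. Over the genes tested in every table the former median was just below 0. By the authors' DESeq2 test 0 members of either were called. At an unadjusted p under 0.05, 2 cornified envelope genes were higher and 1 was lower, Krt77, an upper-layer keratin, with -2.90 ± 1.10 (adjusted p = 0.415), and in the stress list 3 were higher and 0 lower. Basal keratinocyte genes were negative for 16 of 18 members with a median of -0.31, and Trp63, the master transcription factor of stratified epithelium, had -0.60 ± 0.22 (adjusted p = 0.403). Cell cycle genes had a median of 0.23 over 32 members with 0 at an unadjusted p under 0.05 in either direction, and Mki67, a marker of dividing cells, had -0.10 ± 0.29 with an interval from -0.66 to 0.46. Targets of p53 had a median of -0.04 over 25 members.

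Dermal and immune lists had positive medians with wide errors and 0 called members by the authors' DESeq2 test. Of 34 collagen genes 23 were positive, with a median of 0.90 and 4 higher and 0 lower at an unadjusted p under 0.05, and Col1a1, the main chain of fibrillar collagen, had 2.48 ± 0.90 (adjusted p = 0.378). Of 28 matrix proteases and related genes 26 were positive, with a median of 1.01. Mmp11, a protease of stromal fibroblasts, had 2.72 ± 0.84 (adjusted p = 0.226), and Mmp28 was the member at an unadjusted p under 0.05 on the other side with -1.17 ± 0.38. The fibroblast activation list was positive for 25 of 29 members with a median of 0.92. Besides Col1a1, the fibroblast markers set apart as defining were Pdgfra, with 0.92 ± 1.11, and Dcn, with 0.21 ± 1.00.

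All 28 macrophage genes tested were positive, with a median of 1.30 and 12 at an unadjusted p under 0.05. Clec7a, the receptor for fungal beta-glucans, had 2.66 ± 0.79 in the authors' deposited table (adjusted p = 0.189), Mmp12, the elastase of macrophages, had 3.01 ± 0.96 (adjusted p = 0.242), and Trem2, a lipid receptor of macrophages, had 2.09 ± 0.78 (adjusted p = 0.403). The defining marker Emr1, which encodes F4/80, had 0.86 ± 0.76. In non-lesional over non-UV skin these genes had negative values, -3.97 for Clec7a (adjusted p = 0.000165), -4.04 for Mmp12 (adjusted p = 0.00397) and -3.19 for Trem2 (adjusted p = 0.00564), and the median of the list there was -1.54. That comparison and the present one share the non-lesional libraries, with opposite sign, so a level in those libraries enters both. In lesional over non-UV skin the list median was -0.43.

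Other immune lists were positive to varying degrees. The neutrophil list had a median of 1.62 over 12 members tested of 21, 5 of them higher at an unadjusted p under 0.05. Over the 3 members with an SE under 1 the median was 1.53. The authors' filter can favour genes high in 1 of the groups, so nothing is read from the mostly positive values. Csf3r, the receptor for granulocyte growth factor, had 3.36 ± 1.13 (adjusted p = 0.315). In non-lesional over non-UV skin, which shares the non-lesional libraries, the list median was -0.63 and Csf3r had -3.29. S100a8, an alarmin gene, had 0.53 ± 1.38 (adjusted p = 0.968) in perilesional over non-lesional skin. The Langerhans and dendritic list had a median of 0.80 over 16 members, the T and NK cell list 0.46 over 22 and the interferon list 0.39 over 39. The NRF2 target list, of antioxidant genes, had 8 of 26 members higher at an unadjusted p under 0.05 and a median of 0.40, and Gclm, of glutathione synthesis, had 0.94 ± 0.34 (adjusted p = 0.372). By the authors' DESeq2 test 0 members of these 5 lists were called.

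**Figure D4:**
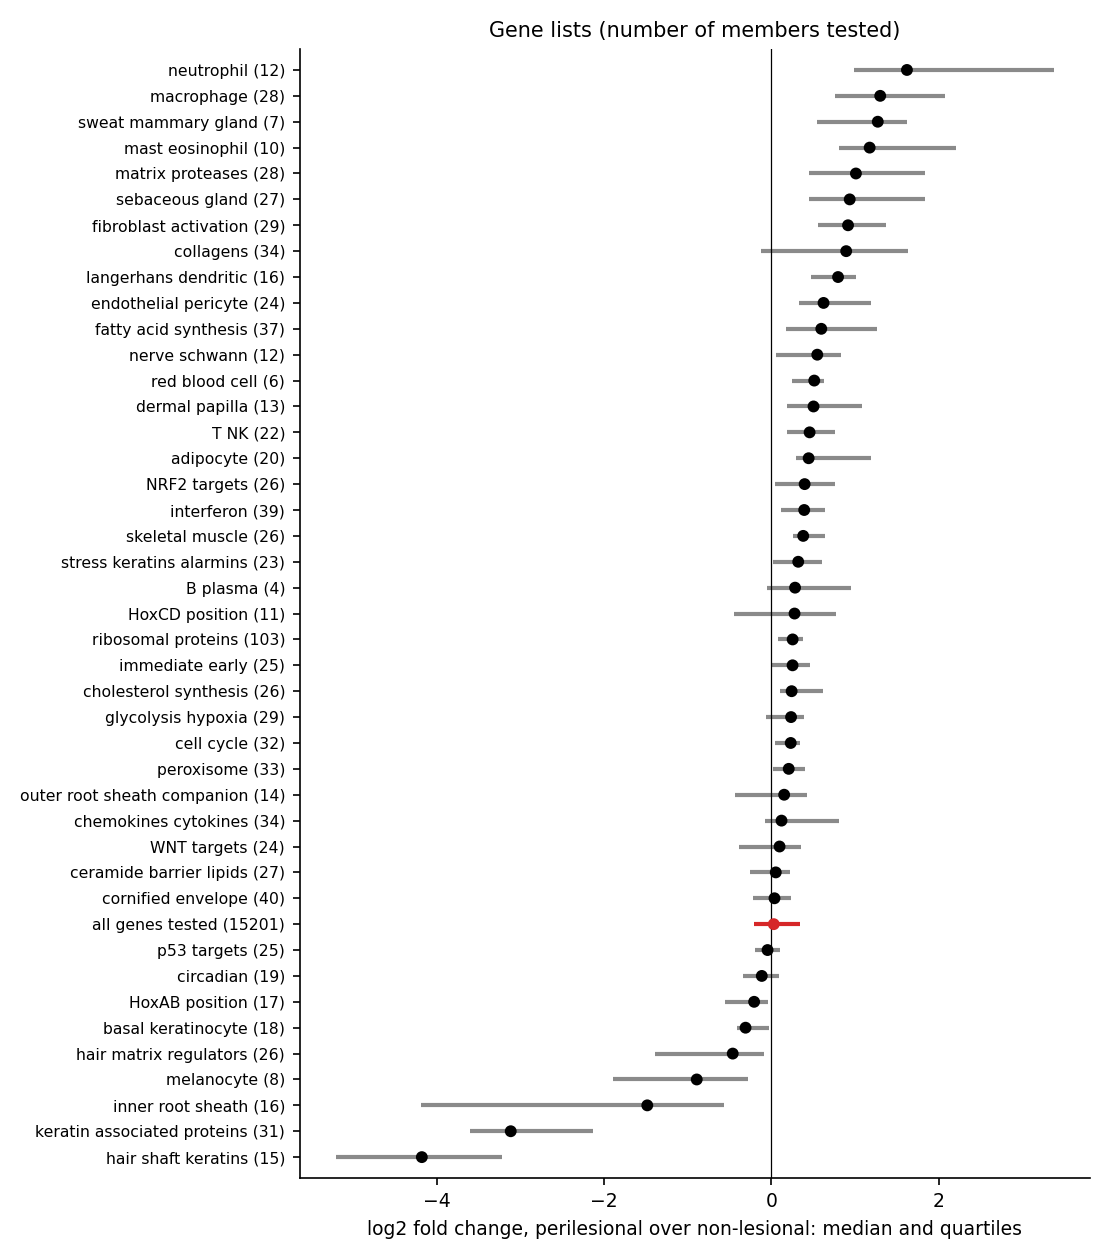
Median (dot) and quartiles (line) of the log2 fold change in perilesional over non-lesional skin for each gene list, with the number of members tested in brackets and all genes in red. Neutrophil (1.62) and macrophage (1.30) lists lie at the top and the hair lists at the bottom, while all genes have a median of 0.03.

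Markers of tissue under or beside the skin were also read, since pieces of skin can differ in depth. Skeletal muscle genes were positive for 23 of 26 members with a median of 0.38 and 0 at an unadjusted p under 0.05. Acta1, skeletal actin, had 0.65 ± 1.59. Adipocyte genes were positive for 18 of 20 members with a median of 0.45 and 1 higher at an unadjusted p under 0.05. Adipoq, the adiponectin gene, had 0.43 ± 0.99 in the authors' deposited table, Plin1 had 1.43 ± 0.95 and Lep, the leptin gene, had 2.92 ± 1.67. Endothelial and pericyte genes were positive for 22 of 24 members with a median of 0.62 and 0 at an unadjusted p under 0.05. Over all genes tested 53.1% were positive. Hox genes, which mark position along the body, had medians of -0.20 over 17 genes of the A and B clusters and 0.28 over 11 of the C and D clusters, the latter turning to -0.45 over genes tested in every table and -0.40 over members with an SE under 1, with Hoxa3 at -1.36 ± 0.46 (adjusted p = 0.323). By the authors' DESeq2 test 0 of these genes were called. These values stand beside the lipid and hair results, and their part in those results was not tested.

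Of the remaining called genes several had large fold changes with wide errors. Panx3, a channel protein of differentiating keratinocytes and skeletal cells, had the largest value of the called genes, 7.20 ± 1.54 in the authors' deposited table (95% interval 4.18 to 10.22, adjusted p = 0.0146). Serpina3j, a serine protease inhibitor of a cluster of near-identical mouse copies, was higher by 5.19 ± 1.14 (adjusted p = 0.0184), and reads may be shared among those copies. Cntn2, a cell adhesion molecule of the immunoglobulin superfamily, was higher by 3.82 ± 0.87 (adjusted p = 0.0184). The tables hold no counts, so the number of reads behind these 3 values is unknown.

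The other called genes changed by 1.25 or less in size on the log2 scale, with small errors. Entpd5, a nucleoside diphosphatase of the endoplasmic reticulum, was higher by 1.07 ± 0.24, Endod1, an endonuclease-domain protein, by 0.96 ± 0.22 and Fam132a, a secreted protein of the C1q and tumour necrosis factor family, by 1.25 ± 0.28 in the authors' deposited table (adjusted p = 0.0184 for each). Pus3, a pseudouridine synthase of transfer RNA, fell by 0.73 on the log2 scale (SE 0.18, adjusted p = 0.0434), and 9430015G10Rik, an uncharacterised gene, fell by 0.87 (SE 0.22, adjusted p = 0.0499). Both were lost when p-values were adjusted over every gene that had one (adjusted p = 0.0537 and 0.0616).

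Just beyond the threshold lay 13 genes with adjusted p from 0.05 to 0.1, which brings the number under 0.1 to 30 (0.197% of genes tested), 22 higher and 8 lower. Among the 8 higher were Slc27a4, Far2, Plin2, Scd1 and Elovl5, all named above, and Btc, an epidermal growth factor receptor ligand, with 1.73 ± 0.46 (adjusted p = 0.099). The lower ones included Dsg4, named above, Papolg, a poly(A) polymerase, with -0.69 ± 0.18 (adjusted p = 0.0682), and Slc16a9, a carnitine transporter, with -0.90 ± 0.24 (adjusted p = 0.0889). Far2 and Slc27a4 passed 0.05 (adjusted p = 0.0399 for each) when the adjustment ran over the genes tested in every table, and so did 1700025G04Rik, with -0.70 (adjusted p = 0.0399). Under centring on the median 1700025G04Rik, Papolg and Mid2, all lower, passed 0.05 (adjusted p = 0.0305, 0.0396 and 0.0496).

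The 14 genes that rose were then followed over the 4 placebo sites, taking each level relative to non-lesional skin from the authors' deposited fold changes. Between non-UV and non-lesional skin 12 of the 14 differed by less than 1 on the log2 scale and 0 were called by the authors' DESeq2 test, beside 1.66% of all genes tested there. In lesional over non-UV skin 11 of the 14 were called, all higher in lesional skin, beside 10.2% of all genes called higher there. Elovl6 stood at 0.25 in non-UV skin, 3.06 in perilesional and 2.45 in lesional skin, all relative to non-lesional skin. The perilesional value of Elovl6 was nearer to the lesional value than to that of either other site. Lesional levels were above non-lesional levels for all 14 and below perilesional levels for 13, Cntn2 being the exception (4.05 against 3.82). The genes were chosen for a high perilesional and a low non-lesional value, which favours such an order. Nothing is therefore read from these counts or from the order of sites for Elovl6. These differences between lesional and perilesional skin are sums of deposited values and were not tested here, and all sums share the non-lesional libraries.

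The genes that rose and differed by more than 1 between non-UV and non-lesional skin were Panx3, at 2.98 in non-UV skin relative to non-lesional skin, and Cntn2, at -1.32. For the others a smaller step that was not called is not shown to be absent. Tchh stood at 1.32 in non-UV, -3.66 in perilesional and -0.75 in lesional skin, and its perilesional value was the lowest of the 4 sites. Tchh was called for a low perilesional value, which favours that order, so nothing is read from it. Plin2 followed another course, at 1.72 in non-UV, 1.74 in perilesional and 1.78 in lesional skin, and its lower level in non-lesional than in non-UV skin was itself called in the authors' deposited table (adjusted p = 0.0164).

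**Figure D5:**
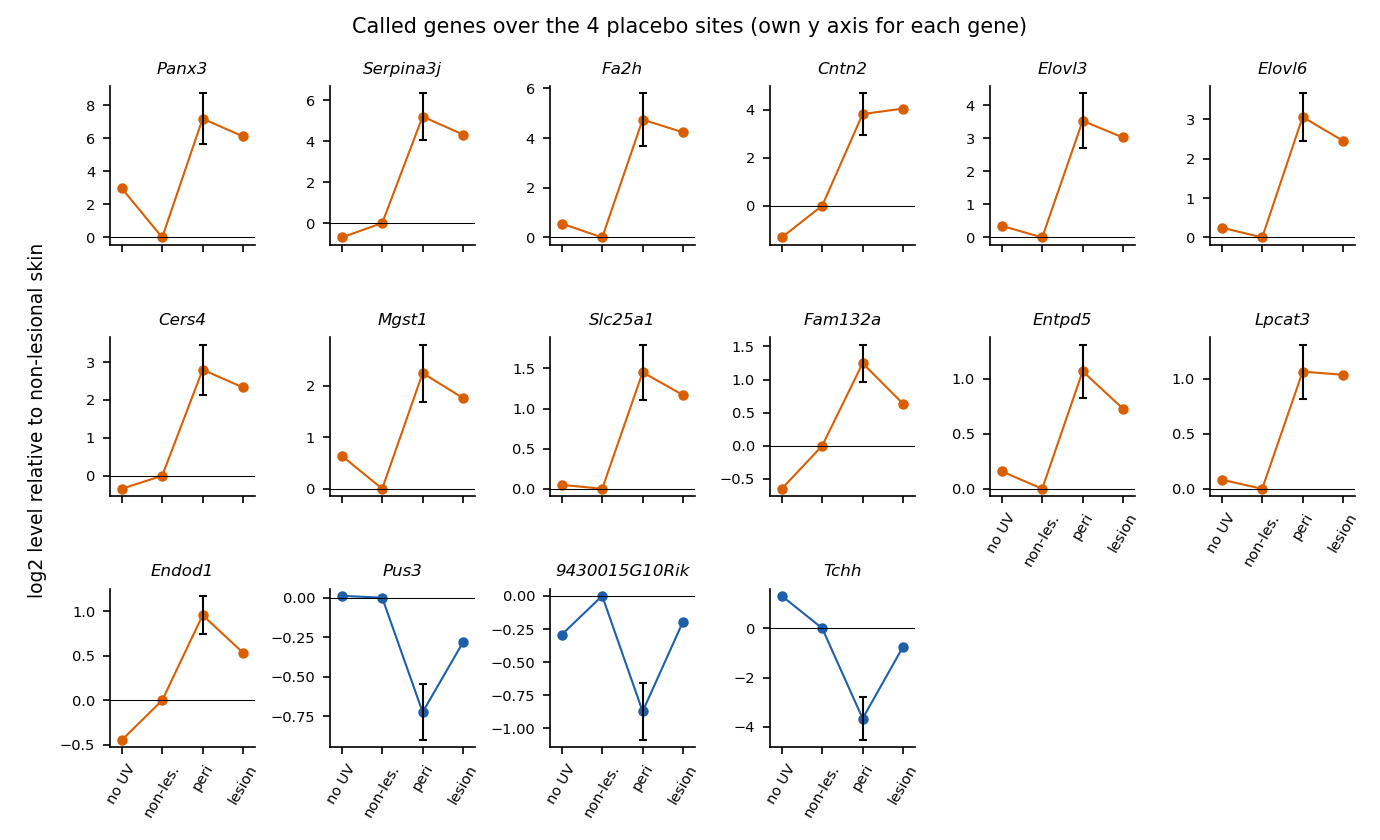
The level of each called gene reported here over the 4 placebo sites (x axis), on a log2 scale relative to non-lesional skin at 0 (y axis, own scale for each gene), with the SE of the perilesional value as a bar. For the genes that rose (orange) lesional skin lies above non-lesional skin. It lies near perilesional skin for Lpcat3 (1.04 against 1.07) and about midway for Fam132a (0.63 against 1.25). Tchh, Pus3 and 9430015G10Rik (blue) have their lowest point in perilesional skin. All these genes were chosen by their perilesional and non-lesional values, which favours such orders, so nothing is read from them.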

How the data were processed

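RNA came from an RNeasy extraction and went into TruSeq Stranded Total RNA libraries, as the labels' protocols state. The submitters' processing notes name Trim Galore, DESeq2 and the build GRCm38 (mm10). How reads were aligned and counted, and with which versions and annotation, is not given in the sources used. In 4 tables the authors deposited, per the file headers, a log2 fold change, a Wald statistic (a score, the fold change over its SE), a p-value and an adjusted p-value for each gene symbol. The tables hold no values per library, so 0 such columns went unused and the depth of each library is unknown. Precision is given by the SE, obtained by dividing each log2 fold change by its Wald statistic, with normal 95% intervals.

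Calls are the authors' DESeq2 Wald test at an adjusted p under 0.05 (Benjamini-Hochberg). An adjusted p is missing for 8826 of 24027 genes, and 5199 have no fold change. Another 25 symbols read as dates were left out. For lesional over non-UV skin the table's name (perilesional against lesional) disagrees with its column headers (lesional against back), and the headers were followed. The reference named back in the headers was taken as non-UV skin, as every remaining group is named in a header. The direction was checked on 1423 genes without reads in non-lesional and non-UV skin, of which 537 were positive and 0 negative in perilesional over non-lesional skin. Levels over sites are sums of deposited log2 fold changes. The 42 gene lists were described by counts and medians without a set test. The members and lists were chosen with earlier results of these data known. Genes set for naming included every called gene. Among those with adjusted p from 0.05 to 0.1 they were up to 10 with the smallest p. Added to these were up to 6 members with the smallest p of each list described, a fixed set of genes and the cell type markers. Not all of these are named, and some genes, such as Btc, Elovl1 and Scd4, are named outside this rule. Of 35 cell type markers 33 were tested. Coordinates are from GENCODE mouse release M21 and promoters from RefSeq (GRCm38.p6). The 7 alternatives to the calls were other adjustments, scalings and thresholds, computed with Python 3.11.15, pandas 2.3.3 and SciPy 1.17.1 and tested on simulated data. Some genes, among them 1 called gene, are not reported here by name but stay in the counts.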

Additional observations from a re-analysis of the deposited data

How the results depend on the processing

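No paired analysis was possible because the tables hold no values per library, and leaving out a replicate, the fit with the replicate number as a block and edgeR on counts were not run for the same reason. Against 17 called genes, 14 higher and 3 lower, division of the Wald statistics by their spread over all genes left 2, with 2 higher and 0 lower. An adjusted p under 0.1 gave 30, with 22 higher and 8 lower. A test of changes above 1 in size on the log2 scale gave 0 in all, 0 higher and 0 lower, beside 554 and 636 at an unadjusted p under 0.05. Adjustment over every gene with a p-value left 14 of the same genes, 1 of them lower. The genes tested in every table gave 18, of which 15 were shared. Centring on the median gave 20, 6 of them lower, with all 17 shared, and centring on the genes tested in every table, chosen after seeing the data, gave 16, 1 of them lower, with 15 shared. Of 271 named genes (179 over genes tested in every table) Krt14 changed sign, to 0.0113 under that last centring, and 0 others did in the settings that were refitted gene by gene. List medians that changed sign were those of the cornified envelope (-3.18e-07 over genes tested in every table), WNT targets (-0.30 there, -0.23 over members with an SE under 1) and Hox C and D genes (-0.45 and -0.40). The median of the inner root sheath list was -3.66 and -0.40 in these settings. The causes were not tested. Counts were not in the tables used, so how far depth limits the lists with wide errors is unknown. At the median SE a log2 fold change of 1.35 would have been needed for a call.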

Other observations

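Families chosen after their values were seen are described from the authors' deposited table, with 0 called members by the authors' DESeq2 test in each. Over all genes tested 53.1% were positive. Zinc finger genes of the Zfp series, mostly transcriptional repressors, were negative for 251 of 337 members tested with a median log2 fold change of -0.20 in perilesional over non-lesional skin. At an unadjusted p under 0.05, 39 were lower (11.6%, beside 4.18% of all genes tested) and 3 higher (0.89%, beside 3.64%). Cytosolic ribosomal protein genes were positive for 73 of 80 with a median of 0.27, mitochondrial ribosomal protein genes for 62 of 77 with 0.17, complex I subunits of the respiratory chain for 36 of 45 with 0.22 and proteasome subunits for 36 of 38 with 0.27. Of these, 4, 3, 0 and 2 were higher and 0 lower at an unadjusted p under 0.05. The shares higher were 5%, 3.9%, 0% and 5.26%, beside 3.64% of all genes tested. The share lower was 0% in each, beside 4.18% of all genes tested. Over the genes as a whole the median was 0.12 in the shortest of 5 equal bins of gene length on the genome (up to 7.42 kb) and -0.04 in the longest (from 68.4 kb), and the share of positive genes was 63.9% and 45.3%. A length was known for 94.2% of the genes tested.

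Skint genes, butyrophilin-like genes of keratinocytes that are involved in the development of epidermal gamma-delta T cells, were negative for 10 of 11 members with a median of -0.55, and 3 were lower at an unadjusted p under 0.05. Lectin receptors of the Clec4 series, found on myeloid cells, were positive for all 6 members tested of 11, with a median of 3.23 and 5 at an unadjusted p under 0.05. The authors' filter can favour genes high in 1 of the groups, so nothing is read from that shared sign. The median of those lectins in non-lesional over non-UV skin, which shares the non-lesional libraries, was -2.88.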
